A study of Mus musculus with 6 samples.

Results

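The bone morphogenetic protein (BMP) genes examined were 10 members of the pathway, chosen by name: the ligand genes Bmp4 and Bmp7, the receptor genes Bmpr1a and Bmpr2, the inhibitory SMAD genes Smad6 and Smad7, and the target genes Id1, Id2, Id3 and Id4. They were 10 of 18193 genes with a symbol on the array and were read by 24 of 45037 probe sets, each of which carries a single gene symbol. Expression was measured on 6 Affymetrix arrays from E14TG2a, a mouse embryonic stem (ES) cell line: 3 arrays of differentiating cells, kept for 3 days in medium lacking leukemia inhibitory factor (LIF) and sorted as 5T4-positive, and 3 arrays of undifferentiated cells, kept with LIF and sorted as 5T4-negative. Both groups come from 1 line grown on gelatin, in medium for which the methods name fetal calf serum and the labels that or a serum replacement. LIF withdrawal and the 5T4 sort cannot be told apart because they differ together. Values are log2 units from robust multi-array average (RMA) processing, and a difference of 1 is a doubling. Neither the labels nor the methods state that the numbered replicates were separate cultures, so the p-values measure the spread between these 6 samples, which may in part be technical.

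BMP ligands are secreted dimers that bring together type I and type II receptor kinases at the cell surface. BMPR1A is a type I receptor and BMPR2 a type II receptor, and the activated complex phosphorylates SMAD1, SMAD5 and SMAD9, which enter the nucleus with SMAD4. Id genes are immediate targets of these SMADs, and Id proteins bind E proteins and keep them from DNA. SMAD6 and SMAD7 block the pathway and are themselves induced by it. In mouse ES cells BMP4, or serum in its place, acts together with LIF to maintain self-renewal, and Id genes are its best known targets there.

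Sequence at the promoter is shown for the ligand gene that passed the test, for Smad6, and for Id2 and Id3, which varied with Id1 between arrays. RefSeq promoter windows (build GRCm38.p6, 250 bases before to 50 bases after the transcript start) were matched for 7 of the 10 members, and not for Bmp7, Id1 or Smad7. The letters searched on both strands are those known for SMAD binding, namely the GC-rich sites GGCGCC and GGAGCC and the palindrome GTCTAGAC, and matches are in capitals (GGCTCC is GGAGCC on the other strand). The Bmp4 stretch lies at chr14:46390670-46390919 on the minus strand, the Smad6 stretch at chr9:64022052-64022209 on the minus strand, the Id2 stretch at chr12:25096093-25096342 on the minus strand and the Id3 stretch at chr4:136143572-136143821 on the plus strand. Each is written 5′ to 3′ along its gene, the Smad6 stretch from position -150 to 8 around the transcript start and the others from -250 to -1.
Bmp4: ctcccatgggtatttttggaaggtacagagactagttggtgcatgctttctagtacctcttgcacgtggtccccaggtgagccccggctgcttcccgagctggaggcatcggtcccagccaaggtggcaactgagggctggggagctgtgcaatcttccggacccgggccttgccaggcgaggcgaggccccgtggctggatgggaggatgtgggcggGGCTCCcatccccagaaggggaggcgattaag
Smad6: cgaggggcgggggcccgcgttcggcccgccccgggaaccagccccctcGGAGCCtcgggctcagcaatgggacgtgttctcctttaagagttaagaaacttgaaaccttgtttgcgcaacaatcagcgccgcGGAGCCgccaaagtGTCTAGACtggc
Id2: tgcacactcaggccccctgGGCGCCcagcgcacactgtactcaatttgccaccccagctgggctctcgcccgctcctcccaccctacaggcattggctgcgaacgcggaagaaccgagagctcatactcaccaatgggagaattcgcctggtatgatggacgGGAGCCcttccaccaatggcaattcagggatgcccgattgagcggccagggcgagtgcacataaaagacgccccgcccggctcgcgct
Id3: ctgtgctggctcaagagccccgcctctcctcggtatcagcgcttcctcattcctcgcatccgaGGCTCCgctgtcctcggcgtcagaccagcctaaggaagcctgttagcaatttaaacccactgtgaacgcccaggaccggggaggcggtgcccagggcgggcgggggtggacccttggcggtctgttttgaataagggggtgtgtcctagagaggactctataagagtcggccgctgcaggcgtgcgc

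The GC-rich sites were found in all 7 windows (at least 1 of them in 37.1% of 32851 windows in the table). GGCGCC alone occurs in 11.9% of all windows, GGAGCC in 30.8% and GTCTAGAC in 0.213%. Of the 7 windows only that of Smad6 holds the palindrome, which begins there at position -4 and crosses the transcript start. In Smad6 GGAGCC, on either strand, begins at positions -102 and -18. In Bmp4 the site begins at position -32, in Id3 at -187, and in Id2 at -231 and -88. The 7 windows hold 59.3% to 79.3% G and C against a median of 52.7% over all windows, which was not taken into account, and the letters were chosen with the expression values known. A match is a description of the sequence.

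Bmp4 fell in differentiating cells and was the only member to pass the test. Of the 24 member probe sets, 1 was called lower and none higher at an adjusted p under 0.1 in limma, against 1.03% of all probe sets called lower and 0.573% called higher (462 and 258 of 45037; after median centring of the arrays 536 and 167). At an unadjusted p under 0.05 stood 5 of the 24, where the share over all probe sets was 13.7%. The differentiating arrays all lay below the undifferentiated ones at 3 member probe sets (Bmp4, Smad6 and Smad7; 10.3% of all probe sets) and all above at 4 (3 of Bmpr1a and 1 of Bmpr2; 10% of all probe sets). At the probe set of highest mean signal of each gene, called the brightest below, the log2 fold change was above 0 for 4 members and below 0 for 6, and its median of -0.16 stood beside 0.02 over all genes. In these sorted bulk samples, fewer cells of a type and less RNA per cell cannot be told apart.

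**Figure D1:**
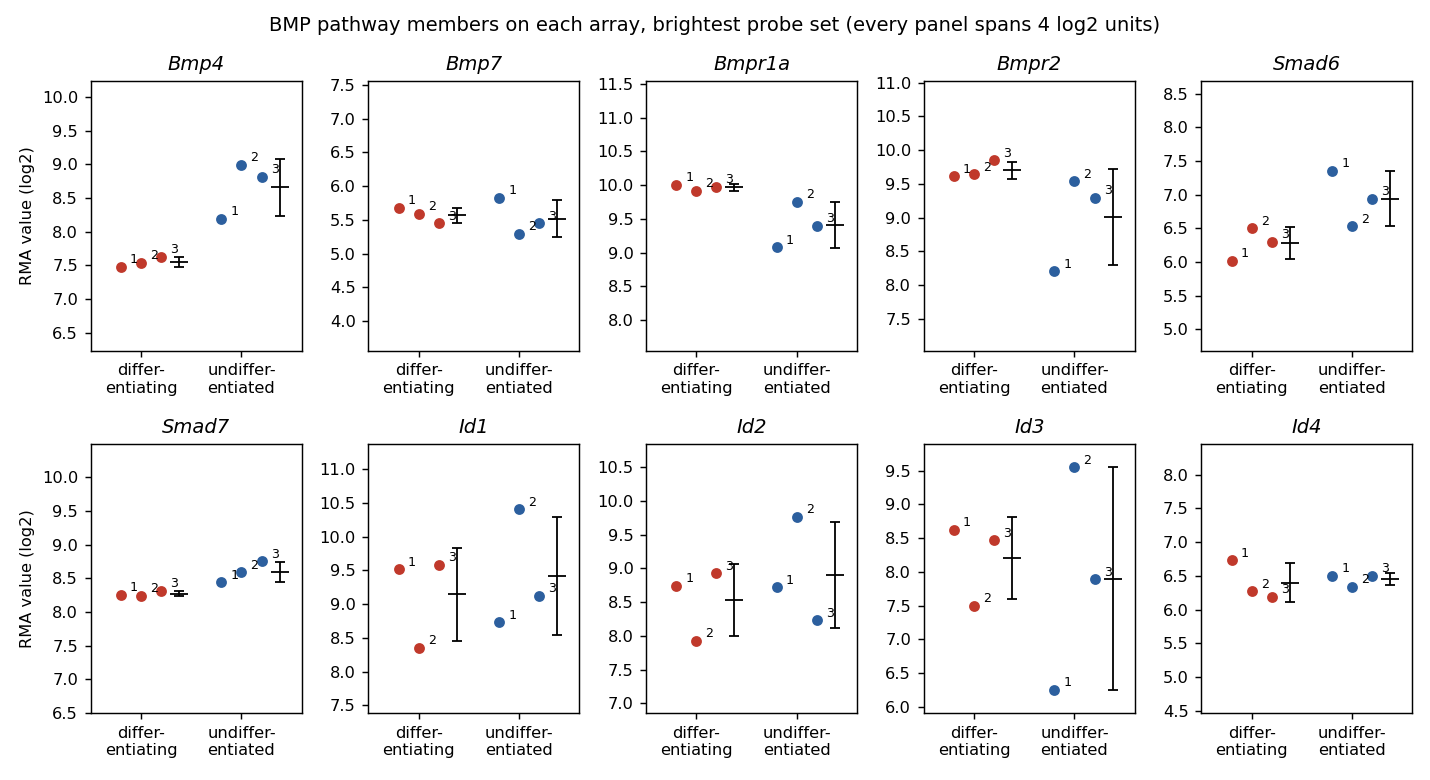
RMA values (log2, vertical axis, 4 units in every panel) of the 10 members at their brightest probe sets on each array, differentiating 5T4-positive in red and undifferentiated 5T4-negative in blue; small digits are the replicates, and black bars give each group's mean with its SD over 3 arrays. The groups are apart for Bmp4, Bmpr1a, Bmpr2, Smad6 and Smad7 and overlap for Bmp7 and the Id genes, and the undifferentiated Id3 values reach from 6.25 to 9.55.

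Bmp4, which encodes the BMP ligand used to maintain mouse ES cells together with LIF, had RMA values of 7.48, 7.54 and 7.63 in differentiating cells, against 8.19, 8.99 and 8.81 in undifferentiated cells. The differentiating arrays lay close together, and all were below the lowest undifferentiated array, replicate 1. Differentiating cells averaged 7.55 ± 0.07 and undifferentiated cells 8.66 ± 0.42 (SD, n = 3 each). Bmp4 was thus 2.16-fold lower (log2 fold change -1.11, 95% interval -1.62 to -0.61; adjusted p = 0.0939 from limma). This call lies near the threshold and was lost without any single array other than undifferentiated replicate 1: the adjusted p was 0.153, 0.366 and 0.307 without differentiating replicate 1, 2 or 3, and 0.105 and 0.346 without undifferentiated replicate 2 or 3. It was 0.0262 without undifferentiated replicate 1, and the log2 fold change lay between -1.35 and -0.95 over all of these. The array carries a single Bmp4 probe set, so no second reading of the gene exists here.

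Bmp7, which encodes a ligand of another branch of the family, showed no separation of the groups. Its brightest probe set had values of 5.68, 5.59 and 5.45 in differentiating cells, against 5.83, 5.29 and 5.45 in undifferentiated cells. The differentiating arrays lay within the undifferentiated range, and the difference was 0.05 on the log2 scale (95% interval -0.34 to 0.44, adjusted p = 0.925 from limma). The others gave -0.18 (95% interval -0.99 to 0.63) and 0.13 (95% interval -0.42 to 0.67). At the first of these, undifferentiated replicate 1 stood at 5.61, above 4.31 and 4.37 in the other undifferentiated arrays. By mean signal the Bmp7 probe sets ranked at the 32.6th to 49.5th percentile. No detection calls came with the values, so low signal cannot be told from background.

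The receptor genes had positive log2 fold changes at their brightest probe sets and did not pass. Bmpr1a, the gene of the type I receptor, had values of 10.01, 9.92 and 9.98 in differentiating cells, against 9.08, 9.75 and 9.40 in undifferentiated cells. All differentiating arrays were above all undifferentiated ones, with undifferentiated replicate 2 nearest to them. The log2 fold change was 0.56 (95% interval 0.13 to 0.98, adjusted p = 0.241 from limma), and without undifferentiated replicate 2 it was 0.73 and passed (adjusted p = 0.0948). Of the 6 Bmpr1a probe sets, 5 were above 0, with log2 fold changes of 0.25 to 0.56, and the dimmest was below 0 (-0.17, 95% interval -0.54 to 0.21, which ranked at the 28.1th percentile of mean signal). Probe sets of 1 gene share its transcripts and are not independent readings.

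Bmpr2, the gene of the type II receptor, had values of 9.61, 9.64 and 9.85 in differentiating cells, against 8.20, 9.54 and 9.29 in undifferentiated cells. The groups did not overlap, but undifferentiated replicate 2 lay just under the lowest differentiating array and the low mean of the undifferentiated group came from replicate 1. The log2 fold change was 0.69 (95% interval -0.10 to 1.48, adjusted p = 0.431 from limma), and 0.29 without undifferentiated replicate 1. Its dimmer probe sets gave 0.32 (95% interval -0.29 to 0.92) and -0.07 (95% interval -0.55 to 0.41), with overlapping arrays at both.

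**Figure D2:**
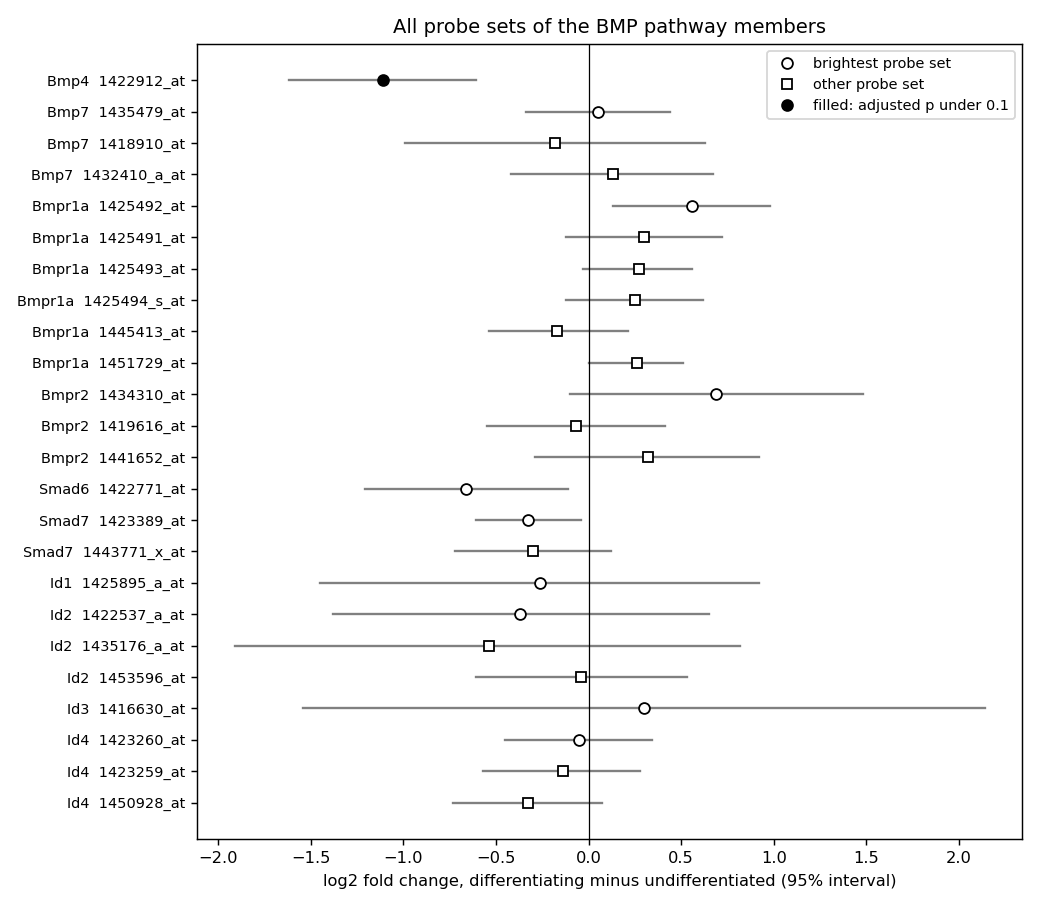
Horizontal axis, log2 fold change of differentiating over undifferentiated cells, with its 95% interval from limma, for each of the 24 member probe sets; circles are the brightest probe set of a gene, squares the others, and filled symbols passed the test (adjusted p under 0.1). Bmp4 (-1.11) is the filled point, and the intervals of Id1, Id2 and Id3 are the widest at brightest probe sets, reaching for Id3 from -1.54 to 2.14.

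The inhibitory SMAD genes had negative log2 fold changes, as Bmp4 did, and did not pass. Smad6, whose product competes with SMAD4 for the BMP-activated SMADs, had values of 6.02, 6.50 and 6.30 in differentiating cells, against 7.35, 6.53 and 6.94 in undifferentiated cells. Each differentiating array was below each undifferentiated array, though differentiating replicate 2 and undifferentiated replicate 2 were nearly level. The log2 fold change was -0.66 (95% interval -1.21 to -0.11), with an unadjusted p of 0.0244 and an adjusted p of 0.275 from limma. Smad7, which blocks both BMP and TGF-beta receptors, had values of 8.25, 8.24 and 8.31 in differentiating cells, against 8.44, 8.59 and 8.75 in undifferentiated cells. The groups did not overlap, and the difference was small, at -0.33 on the log2 scale (95% interval -0.61 to -0.04, unadjusted p = 0.0308 and adjusted p = 0.303 from limma). The second Smad7 probe set gave -0.30 (95% interval -0.72 to 0.12) with overlapping arrays.

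The Id genes did not differ between the groups beyond their spread, which was wide for Id1, Id2 and Id3. Id1 had values of 9.52, 8.35 and 9.58 in differentiating cells, against 8.73, 10.41 and 9.12 in undifferentiated cells. The groups overlapped, with differentiating replicate 2 the lowest array of all 6 and undifferentiated replicate 2 the highest. The difference was -0.26 on the log2 scale, and its 95% interval ran from -1.45 to 0.92 (adjusted p = 0.865 from limma). Id2 had values of 8.74, 7.93 and 8.93 in differentiating cells, against 8.72, 9.77 and 8.23 in undifferentiated cells. The same arrays were lowest and highest, and the difference was -0.37 (95% interval -1.38 to 0.65, adjusted p = 0.764). The other Id2 probe sets gave -0.54 (95% interval -1.91 to 0.82) and -0.04 (95% interval -0.61 to 0.53).

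Id3 had values of 8.62, 7.50 and 8.47 in differentiating cells, against 6.25, 9.55 and 7.89 in undifferentiated cells. Undifferentiated replicates 1 and 2 were the lowest and highest of the 6 arrays, and differentiating replicate 2 was again the lowest of its group. The log2 fold change was 0.30, and its 95% interval from -1.54 to 2.14 covers differences of over 2-fold in either direction (adjusted p = 0.907 from limma). Id4, a family member known for roles in neural development, had values of 6.73, 6.27 and 6.19 in differentiating cells, against 6.50, 6.34 and 6.50 in undifferentiated cells. These values were tight and overlapping, and differed by -0.05 on the log2 scale (95% interval -0.45 to 0.34, adjusted p = 0.926), and its other probe sets gave -0.14 (95% interval -0.57 to 0.28) and -0.33 (95% interval -0.73 to 0.07).

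At their brightest probe sets, used here unless stated, Id1, Id2 and Id3 deviated together from their group means. All of them were above their group mean in differentiating replicates 1 and 3 and undifferentiated replicate 2. They were below it in differentiating replicate 2 and undifferentiated replicates 1 and 3, though Id3 by only -0.01 in undifferentiated replicate 3. The other Id2 probe sets did not follow this throughout. The second was below its group mean in differentiating replicate 1 (7.63 against 8.09) and above it in undifferentiated replicate 1 (8.72 against 8.63). The dimmest was highest of its group in undifferentiated replicate 1 (4.44). In undifferentiated replicate 2 the distance from the group mean was 0.99 for Id1, 0.86 for Id2 and 1.65 for Id3, and in differentiating replicate 2 it was -0.80, -0.60 and -0.70. Over the 6 arrays Pearson's r was 0.90 between Id1 and Id2, 0.86 between Id1 and Id3 and 0.62 between Id2 and Id3, whereas Id4 had r of -0.01, -0.08 and -0.11 with them. The correlation of Id1 with Bmp4 was 0.44. These coefficients describe 6 arrays of 2 groups that share their processing. The range between undifferentiated arrays was 3.30 for Id3, 1.68 for Id1 and 1.54 for Id2, at the 99.8th, 97.6th and 97th percentile of such ranges over all probe sets.

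Some markers of other cell types had their lowest differentiating and highest undifferentiated value on these same replicate 2 arrays. They were 2 of 4 trophectoderm genes (Cdx2 and Krt8), 3 of 9 fibroblast genes (Col1a1, Col1a2 and Col3a1), 2 of 7 endoderm genes (Gata4 and Sox7) and 2 of 4 neuroectoderm genes (Nes and Neurog2), and none of the pluripotency, primed epiblast, mesoderm or blood and endothelium genes. The share of all genes with this pattern was not computed, so these counts are a description. Cdx2, Col3a1, Gata4, Sox7 and Neurog2 lay below the median signal, at percentiles 42.8, 42.1, 38.7, 36 and 33. Pax6, in the neuroectoderm list, was lowest of its group in undifferentiated replicate 2 (7.13) and highest in differentiating replicate 2 (7.14). In the endoderm list Sox17 was lowest in undifferentiated replicate 2 (5.20) and Foxa2 highest in differentiating replicate 2 (4.80), both also below the median signal. Krt8, a simple epithelial keratin listed here as a trophectoderm marker, had values of 12.49, 11.01 and 11.50 in differentiating cells, against 8.33, 12.54 and 9.64 in undifferentiated cells. Within each group its lowest and highest arrays were those of Id3. Col1a2, a fibrillar collagen gene, had 9.34, 7.41 and 7.89 in differentiating cells, against 5.55, 8.44 and 6.51 in undifferentiated cells. Tpbg, the gene of 5T4, was 6.71, 7.52 and 7.97 in differentiating cells, against 5.94, 6.76 and 5.68 in undifferentiated cells. The groups overlapped, and the log2 fold change of 1.27 did not pass (adjusted p = 0.22 from limma). Tpbg was highest in replicate 2 among undifferentiated arrays, as Id1, Id2 and Id3 were at their brightest probe sets. Among differentiating arrays Tpbg was lowest in replicate 1, where they were not. For the whole trophectoderm list of 4 genes the mean value was 6.41 to 7.04 in differentiating arrays and 5.72 to 7.04 in undifferentiated arrays, highest there in replicate 2, and none passed. Of these genes Krt8 varied most between undifferentiated arrays, and Elf5 was highest there in replicate 3 (4.20, 4.29 and 4.30). For the 9 fibroblast genes the mean value was 5.66 to 6.05 in differentiating arrays and 5.34 to 5.74 in undifferentiated arrays, again highest in undifferentiated replicate 2, and none passed. Within that list Thy1 and Pdgfra were lowest in undifferentiated replicate 2. Their part in the Id values was not tested.

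**Figure D3:**
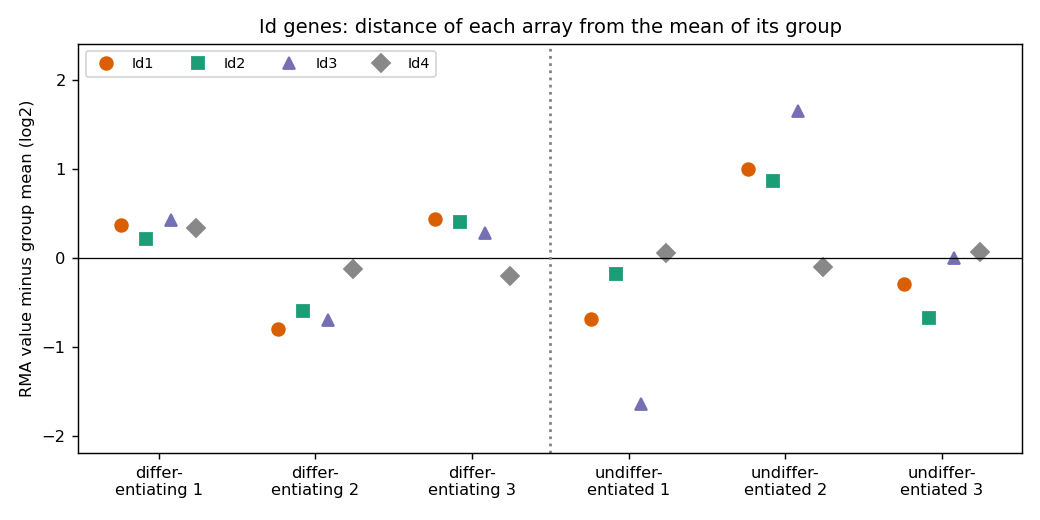
Distance of the RMA value (log2, vertical axis) of Id1, Id2, Id3 and Id4 from the mean of the array's own group, for each of the 3 differentiating and 3 undifferentiated arrays (horizontal axis), at the brightest probe sets. Id1, Id2 and Id3 lie together below 0 in differentiating replicate 2 and above 0 in undifferentiated replicate 2, while Id4 stays between -0.21 and 0.33.

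In the wider pathway, no gene passed at its brightest probe set. Of 58 further genes listed by role 54 were measured, and 35 lay above and 19 below 0 on the log2 scale (median 0.07, beside 0.02 over all genes). None was called, against 2.25% of all genes. An unadjusted p under 0.05 was found for 6 of the 54, where the share over all genes was 17.2%. Values without overlap between the groups were found for 10 of the 54, against 23.5% of all genes. By role, 0 of 9 ligands, 0 of 8 receptors and co-receptors, 0 of 4 signal transducing SMADs, 0 of 12 secreted antagonists and modulators, 0 of 7 intracellular and membrane inhibitors, 0 of 11 other target genes and 0 of 3 E protein genes passed. The list was chosen with earlier results of these data known.

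The gene of largest change in each role, among those above the median signal, is given here. Among ligands it was Gdf2, known as BMP9 (log2 fold change 0.39, adjusted p = 0.428 from limma). Among SMADs it was Smad4, the shared partner of the pathway SMADs, with 11.03, 11.45 and 11.58 in differentiating cells against 10.84, 11.09 and 10.98 in undifferentiated cells (0.38, adjusted p = 0.389). Smad5, a SMAD that BMP receptors phosphorylate, was level with it at 0.38 (adjusted p = 0.407), with all differentiating arrays above. Fst, which encodes the activin and BMP antagonist follistatin, had 6.48, 6.61 and 7.41 in differentiating cells against 5.42, 6.67 and 6.02 in undifferentiated cells (0.79, adjusted p = 0.409). Neither Smad4 nor Fst separated the groups. Tob1, whose product represses BMP signalling, differed by -0.49 (adjusted p = 0.43). Tcf12, which encodes an E protein that Id proteins bind, was 9.39, 9.67 and 9.90 in differentiating cells, against 8.71, 9.33 and 9.04 in undifferentiated cells (0.63, adjusted p = 0.244), with no overlap.

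Among genes above the median signal, Rgmb had the largest change of the receptors and co-receptors and Dusp9 of the other targets. Below it, the receptor gene Bmpr1b reached 0.63, with all differentiating arrays above (adjusted p = 0.23 from limma). Rgmb and Dusp9 did not pass at their brightest probe sets (0.60, adjusted p = 0.466, and -0.65, adjusted p = 0.291) but did at a dimmer one, which was singled out after its values were seen. Rgmb encodes a BMP co-receptor of the repulsive guidance family. Its called probe set had values of 6.29, 6.59 and 6.67 in differentiating cells, against 5.42, 5.71 and 5.81 in undifferentiated cells. These groups were apart by more than their spread, at 0.87 on the log2 scale (95% interval 0.49 to 1.24, adjusted p = 0.0897 from limma), and all 6 Rgmb probe sets were above 0, at 0.46 to 1.02. Dusp9 encodes a phosphatase of ERK and is a BMP target in mouse ES cells. Its called probe set had 8.59, 8.35 and 8.32 in differentiating cells, against 9.38, 9.48 and 9.00 in undifferentiated cells, a difference of -0.87 (95% interval -1.25 to -0.48, adjusted p = 0.0912). The other Dusp9 probe sets gave -0.65 and -0.45, with overlapping arrays. Both of these calls were lost without differentiating replicate 2 (adjusted p = 0.366 for Rgmb and 0.37 for Dusp9), differentiating replicate 3 (0.321 and 0.324), undifferentiated replicate 1 (0.113 and 0.124) or undifferentiated replicate 3 (0.274 and 0.206). Dusp9 also lost its call without undifferentiated replicate 2 (0.115). Rgmb was lost with median centring (0.107) and a trended robust variance (0.101), and Dusp9 with a second quantile normalization (0.131) and the replicate block (0.102). At the brightest probe sets Rgmb passed without differentiating replicate 1 (0.98, adjusted p = 0.0443), as Bmpr1b did, and with array weights both Rgmb (0.88, adjusted p = 0.0234) and Dusp9 (-0.67, adjusted p = 0.0502) passed. Of all 45037 probe sets, array weights called 3595 lower and 3579 higher.

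**Figure D4:**
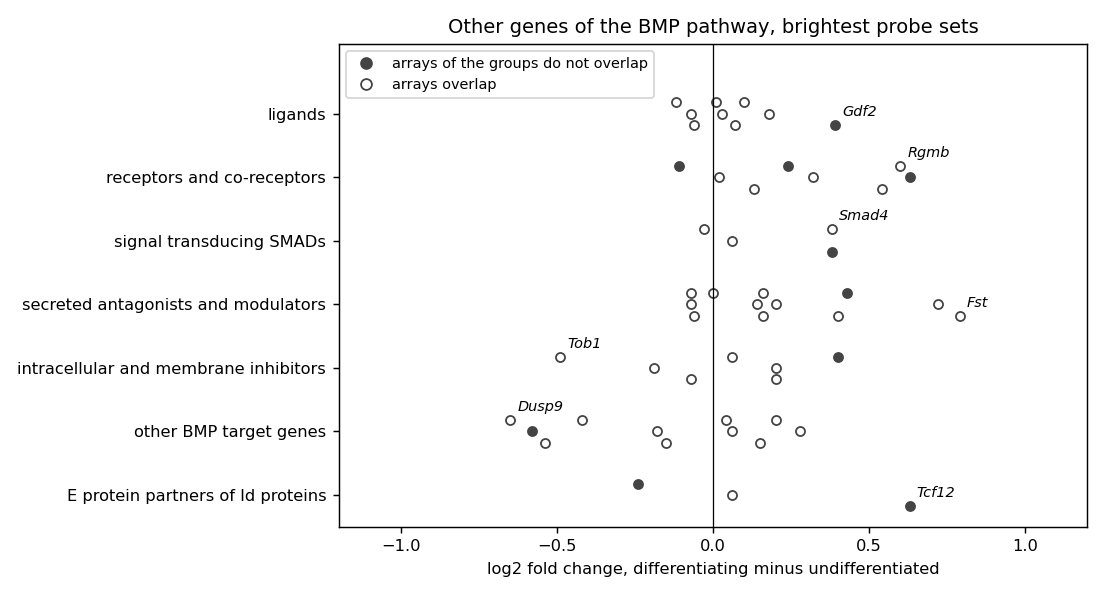
Horizontal axis, log2 fold change of differentiating over undifferentiated cells, for the 54 measured genes of the wider pathway at their brightest probe sets, by role; filled points are genes whose arrays do not overlap between the groups, and the offset within a role only separates points. The points lie on both sides of 0, from -0.65 for Dusp9 to 0.79 for Fst, and none had an adjusted p under 0.1.

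The genes whose values were most like those of Bmp4 over the 6 arrays were AA414768 (Pearson's r = 0.9946), Ddx18 (0.9908), which encodes an RNA helicase, Trmt2a (0.9901), which encodes a tRNA methyltransferase, and Mak16 (0.9897), known for ribosome assembly in yeast. AA414768 had values of 4.74, 4.80 and 4.72 in differentiating cells, against 5.53, 6.32 and 6.10 in undifferentiated cells. Ddx18, Trmt2a and Mak16 had log2 fold changes of only -0.25, -0.38 and -0.38 and did not pass. Those most like Id1 were Gap43 (r = 0.9818), a neuronal growth cone gene, Gm3515 (0.9793), Dpysl3 (0.9734) and Akap2 (0.9711). Gm3515 had low signal and varied little, with values of 3.72 to 3.89. Gap43 had values of 8.06, 6.85 and 7.97 in differentiating cells, against 7.33, 8.83 and 7.33 in undifferentiated cells, low and high on the same replicate 2 arrays as Id1. Over these 6 arrays 3 genes had r above 0.99 with Bmp4 and 0 with Id1.

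Across the series as a whole, the arrays had medians of 5.54 to 5.65, with lower quartiles of 4.26 in differentiating replicate 1 and 4.07 to 4.10 in the others. Of 6 pluripotency markers all were lower on every differentiating array, 3 of them passing (Pou5f1, Sox2 and Klf4). Pou5f1 was still 11.39 to 11.53 in differentiating cells, against 11.98 to 12.26 in undifferentiated cells. The differentiating arrays were not alike in these markers, with list means of 10.34, 9.54 and 8.94 in replicates 1, 2 and 3. Esrrb (8.81, 7.25 and 5.45), Zfp42 and Klf4 fell in that order, whereas Pou5f1, Sox2 and Nanog did not. Of 4 primed epiblast markers all were higher on every differentiating array, and only Fgf5 passed. None of the markers of mesoderm (5), endoderm (7), neuroectoderm (4) or blood and endothelium (7) passed. In the neuroectoderm list Nes was nevertheless higher on every differentiating array (1.18, adjusted p = 0.153 from limma), and Pax6 differed by -1.13 with overlapping arrays. In the blood and endothelium list Gata1 was lower on every differentiating array. Of 9 fibroblast genes 3 were higher on every differentiating array, and none passed.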

How the data were processed

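The authors processed the Affymetrix arrays with RMA in the affy library, whose steps are background correction, normalization across arrays and 1 summary value per probe set, and deposited log2 values. All 6 columns were matched to the labels, which give each group and replicate number. No genome build was named for the values. Of 45101 probe sets, 64 controls were left out. The platform annotation gave a single symbol to 34945, several to 932 and none to 9160.

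Differentiating and undifferentiated cells were compared with limma 3.58.1 (lmFit, then eBayes, under R 4.3.3) and Benjamini-Hochberg adjustment over 45037 probe sets, without a replicate block, and called at an adjusted p under 0.1, the threshold of the methods, whose further fold threshold was not applied. The steps were tested on simulated data. Members and lists were chosen with earlier results of these data known. Named genes are the members, called pathway genes or the largest change per role above the median signal, the 4 genes most correlated with Bmp4 and with Id1, and cell type markers. Alternatives were a replicate block, a filter on dim probe sets, control probe sets kept, further normalizations, other variance models, array weights, each array left out, other call rules and other probe set rules. The number of arrays, 3 per group, limits the precision.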

Additional observations from a re-analysis of the deposited data

How the results depend on the processing

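Bmp4 was called lower in 7 of the 7 fits that kept all 6 arrays and changed the normalization, the probe sets, the variance model, the weights or the block, with a log2 fold change from -1.26 to -1.06. These fits share the same arrays and differ little: the adjusted p from limma was 0.00363 with array weights and 0.086 to 0.0984 in the others. With the replicate number as a block Bmp4 stayed at -1.11 (adjusted p = 0.0984 from limma), and the block gave 388 probe sets lower and 265 higher. Whether the numbers pair the samples is not stated. Same-numbered arrays had correlations of 0.21, -0.11 and 0.11 in their deviations, and not every array correlated best with its own number. Deviations within groups of 3 arrays are too few to settle the pairing. At an adjusted p under 0.05 the member probe sets called lower were 0. With each array left out in turn, member probe sets called lower were 0 to 1 and called higher 0 to 1, pathway genes called were 0 to 2, and Bmp4 ranged from -1.35 to -0.95. Over the whole table limma called 0 probe sets lower and 0 higher without differentiating replicate 2 (4129 at an unadjusted p under 0.05), 3 and 0 without differentiating replicate 3, 1 and 0 without undifferentiated replicate 3, 738 and 753 without undifferentiated replicate 2, 485 and 508 without differentiating replicate 1, and 536 and 167 with median centring. Array weights, from 0.298 for differentiating replicate 1 to 5.11 for differentiating replicate 2, gave 3595 lower and 3579 higher of 45037 probe sets. Beside these, of the 24 member probe sets 3 were lower (Bmp4, 1 of Smad7 and 1 of Id4) and 1 higher (Bmpr1a). Of the 54 pathway genes 11 were called. The share of all genes called at brightest probe sets under these weights was not computed, so that count is a description. The weights put Id3 at -0.61, and moved Id1 to -0.94, Id2 to -0.72, Id4 to -0.16, Bmp7 to 0.14, Smad6 to -0.39 and Bmpr2 to 0.42, none of which passed at its brightest probe set. Counting any probe set gave 2 pathway genes (Rgmb and Dusp9). The share of all genes under that rule was not computed, and genes with several probe sets have more chances to be called. Signs turned only for members that had not passed: with an array left out Bmp7 ranged from -0.06 to 0.20, Id1 from -0.61 to 0.23, Id2 from -0.71 to 0.06, Id3 from -0.52 to 1.13 and Id4 from -0.22 to 0.05, and Bmp7 averaged over its probe sets was 0.00. The causes were not tested.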
